A study of Mus musculus with 4 samples.

Results

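Lambda light chain B cells are the minority of mouse B cells whose antigen receptor carries a lambda light chain in place of a kappa chain. They were picked by transcript counts, as B cells with at least 5 UMIs (unique molecular identifiers, each standing for 1 captured RNA molecule) of the lambda constant genes Iglc1, Iglc2 and Iglc3 summed, and with more of these than of the kappa constant gene Igkc. A B cell was a barcode with at least 200 genes, at most 10% mitochondrial UMIs, at least 3 UMIs of Cd79a, Cd79b and Ms4a1 summed, none of Cd3e or Cd3d, and under 1% of its UMIs, haemoglobin left out, from S100a8 and S100a9. By this rule 2270 cells were called lambda cells, of 16558 B cells, 49121 barcodes past the gene and mitochondrial filters and 106391 barcodes deposited. A further 13764 B cells carried at least 5 Igkc UMIs and more of these than of Iglc, and they served as the kappa cells for comparison.

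The cells came from 4 single-cell RNA libraries of female C57/Bl6 mice aged 6 to 8 weeks: metastasis and sham libraries of lung, and metastasis and sham libraries of blood. Mice of the metastasis arm received 800000 B16F10 cells, a mouse melanoma line, into the spleen on day 0, which seeds the liver, and mice of the sham arm received saline the same way. The spleen was removed at once in both arms, so every mouse lacked one, and every mouse also carried 250000 B16F10 cells under the skin; tissue was taken on day 7. Lungs were homogenised and passed over columns that remove dead cells, and CD45+ cells of blood were collected by density centrifugation. The design text also names kits that enrich CD45+ cells, without the tissue, so whether lung was enriched too remains unknown. Each tissue and arm is 1 library, the number of mice in each and whether lung and blood came from the same mice are not given in the sources used here, and so no difference between arms can be tested against a spread between animals. In the order of the libraries above, the lambda cells numbered 246, 506, 294 and 1224, and the kappa cells 1643, 3859, 1351 and 6911.

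A developing B cell first joins its heavy chain segments and then tries the kappa locus, and the lambda locus is usually recombined only where kappa did not give a usable, non-self-reactive receptor. This secondary light chain recombination is called receptor editing when it replaces a self-reactive receptor, and it needs the recombinase encoded by Rag1 and Rag2. The mouse lambda locus is small: Iglv1 is joined mainly to the Iglc1 or Iglc3 cluster, and Iglv2 and Iglv3 mainly to the Iglc2 cluster.

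The lambda genes lie on chromosome 16 between 19061618 and 19260859 of GRCm38 (12 annotated genes), and the kappa genes on chromosome 6 between 67555497 and 70726966 (166 annotated genes). The last 126 coding bases of the constant genes, from the GENCODE annotation of that build, are shown because the rule sums Iglc1, Iglc2 and Iglc3, and only some of the 3 can be told apart well by short reads. All 3 are on the minus strand and are printed 5′ to 3′ with the stop codon, and capitals mark bases that differ from Iglc2.
Iglc1, chr16:19061752-19061877: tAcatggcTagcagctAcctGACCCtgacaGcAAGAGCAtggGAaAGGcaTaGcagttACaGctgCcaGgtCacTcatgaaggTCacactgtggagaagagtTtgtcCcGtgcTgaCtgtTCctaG
Iglc2, chr16:19198536-19198661: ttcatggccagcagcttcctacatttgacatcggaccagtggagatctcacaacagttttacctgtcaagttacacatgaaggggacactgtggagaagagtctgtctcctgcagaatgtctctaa
Iglc3, chr16:19065365-19065490: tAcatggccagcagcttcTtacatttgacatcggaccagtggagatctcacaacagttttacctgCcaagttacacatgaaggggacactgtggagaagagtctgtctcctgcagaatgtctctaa
Iglc1 differs from Iglc2 at 40 of these 126 bases, and Iglc3 at 3. Over the whole transcripts Iglc2 and Iglc3 were 95.6% identical with a shared run of 79 bases, against 68.8% for Iglc1 and Iglc2, so the split of UMIs between Iglc2 and Iglc3 is less certain than the Iglc1 count. Iglv1 and Iglv2 were 96.7% identical, and their split is uncertain for the same reason.

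The libraries held 127281060, 132540945, 112079231 and 116022872 UMIs in the order lung (metastasis, then sham) and blood (metastasis, then sham). Lambda cells had a median of 1584, 2066, 2271 and 3232 UMIs without haemoglobin, slightly under the kappa cells at 1809, 2300, 2465 and 3560. Haemoglobin RNA made up 26.2%, 21.5%, 22.02% and 10.03% of the UMIs of lambda cells, and 24.8%, 19.9%, 16.5% and 7.93% of those of kappa cells. Of the lambda cells, 5.69%, 4.15%, 1.70% and 4.74% had a Scrublet doublet score of at least 0.3, against 4.99%, 3.29%, 1.26% and 4.04% of kappa cells. Between 2 and 12 lambda barcodes in a library also occurred in another library. The label B cell was checked on genes outside the rule: H2-Aa, an MHC class II gene of B cells, stood at 1915 to 2139 CPM (summed UMIs per 1000000, with haemoglobin and light chain genes left out of the total) in the lambda cells of the 4 libraries, against 12.9 to 81.4 in T cells. Cd22, an inhibitory receptor of B cells, did not pass the test between lambda and kappa cells (log2 difference 0.02, adjusted p = 0.933 by edgeR).

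The lambda cells carried many Iglc UMIs and, in a large part of them, Igkc UMIs as well. Their median Iglc count was 22, 25, 30 and 44 UMIs in lung metastasis and sham and blood metastasis and sham, and their median Igkc count was 0.5, 2, 6 and 10. Kappa cells had a median Iglc count of 3, 3, 7 and 11 UMIs and a median Igkc count of 19, 23, 27 and 37. No Igkc UMI at all was seen in 123 of the 246 lambda cells of lung metastasis, and in 40.7%, 35.4% and 28.8% of those of the other libraries. In the other direction, at least 1 Iglc UMI was seen in 82.8%, 85.3%, 97.7% and 99.2% of kappa cells. T cells of the same libraries (at least 3 UMIs of Cd3e and Cd3d summed and none of Cd79a, Cd79b or Ms4a1), which should express neither chain, had an Iglc UMI in 0.637%, 3.85%, 0.714% and 3.87% of cells at a median of 3010, 3771, 4054 and 5615 UMIs, so the Iglc UMIs of kappa cells stood far above the level in T cells. The T cells were picked for having no Cd79a, Cd79b or Ms4a1 UMI, so their Iglc level may be low in part by that choice. The light chain counts chose the lambda and kappa cells and are a description.

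Along the Iglc share of a cell's Iglc and Igkc UMIs, the B cells with at least 5 such UMIs formed a broad hump below 50% and a separate peak at 90% or more. The hump peaked at 0 to 10% Iglc in the lung, with 33.8% of these B cells in lung metastasis and 35.3% in lung sham, and at 20 to 30% in blood, with 21.8% in blood metastasis and 26.5% in blood sham. Between 80% and 90% lay 1.65%, 1.27%, 1.07% and 1.26% of them, and at 90% or more 7.81%, 6.47%, 7.39% and 5.70%. The rule's boundary at 50% therefore runs through the upper edge of the hump and not through the gap before the peak. Just inside it, 14, 30, 26 and 90 lambda cells had only 1 or 2 more Iglc than Igkc UMIs. Just outside, 35, 48, 32 and 144 cells had 1 or 2 more Igkc than Iglc UMIs. At the lower count limit, 9, 9, 3 and 4 lambda cells had exactly 5 Iglc UMIs, and 13, 7, 7 and 2 cells with 4 Iglc UMIs above Igkc stayed out. Lambda cells of at least 90% Iglc (151, 286, 124 and 467) and those of 50 to 90% Iglc (95, 220, 170 and 757) are therefore also described apart, a split chosen after the values were seen. Those of 50 to 90% are 1242 of the 2270, and all of them held Igkc UMIs, at a median of 8, 11, 14 and 21. Part of the cells called lambda here, most of all in that stratum, may therefore not be lambda cells, and the shares and levels given for all 2270 carry that doubt.

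**Figure D1:**
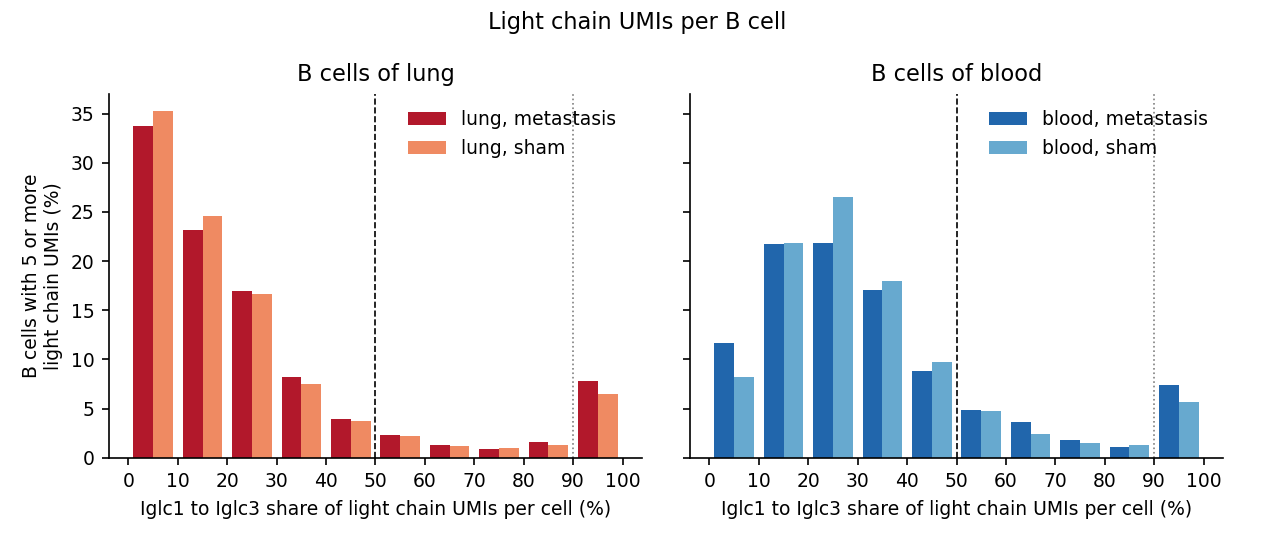
Share of B cells (vertical axis, percent of the library's B cells with at least 5 Iglc and Igkc UMIs together) by the share of Iglc1, Iglc2 and Iglc3 among a cell's Iglc and Igkc UMIs (horizontal axis, percent, in steps of 10), lung on the left and blood on the right, metastasis bars left of sham bars. The dashed line is the rule's boundary at 50% and the dotted line 90%; 1.07% to 1.65% of cells lie between 80% and 90%, and 5.70% to 7.81% at 90% or more.

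Iglc1 was the leading lambda constant gene. In lambda cells Iglc1 stood at 92.7, 70.3, 74.4 and 62.5 UMIs per 10000 UMIs without haemoglobin, Iglc2 at 49.4, 44.7, 49.9 and 45.5, and Iglc3 at 17.8, 12.1, 18.0 and 14.8. In lung metastasis 1 cell held 696 of the 7086 Iglc UMIs, so the summed levels there lean in part on that cell. The highest cell held 128 in lung sham, 184 in blood metastasis and 261 in blood sham. Igkc remained at 24.5, 24.5, 37.6 and 38.5 per 10000 in these cells. Iglc1 gave 58.0%, 55.3%, 52.3% and 50.9% of the Iglc UMIs of lambda cells, against 25.7%, 23.9%, 24.7% and 22.3% of the Iglc UMIs of kappa cells, where Iglc2 led with 48.0% to 49.9%. The Iglc1 share thus ran higher in lambda than in kappa cells in all 4 libraries, without overlap. The sum of these genes chose the cells, so this contrast is a description and not a test. Per cell, Iglc1 had the most UMIs of the 3 in 55.3%, 57.7%, 51.7% and 52.5% of lambda cells, Iglc2 in 33.7%, 33.0%, 37.1% and 39.5%, and Iglc3 in 8.94%, 6.92%, 7.48% and 6.45%. In the cells of at least 90% Iglc, Iglc1 led in 60.3%, 64.3%, 66.9% and 67.7%, and in those of 50 to 90% in 47.4%, 49.1%, 40.6% and 43.1%. Iglc4 gave only 3, 8, 7 and 24 UMIs.

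**Figure D2:**
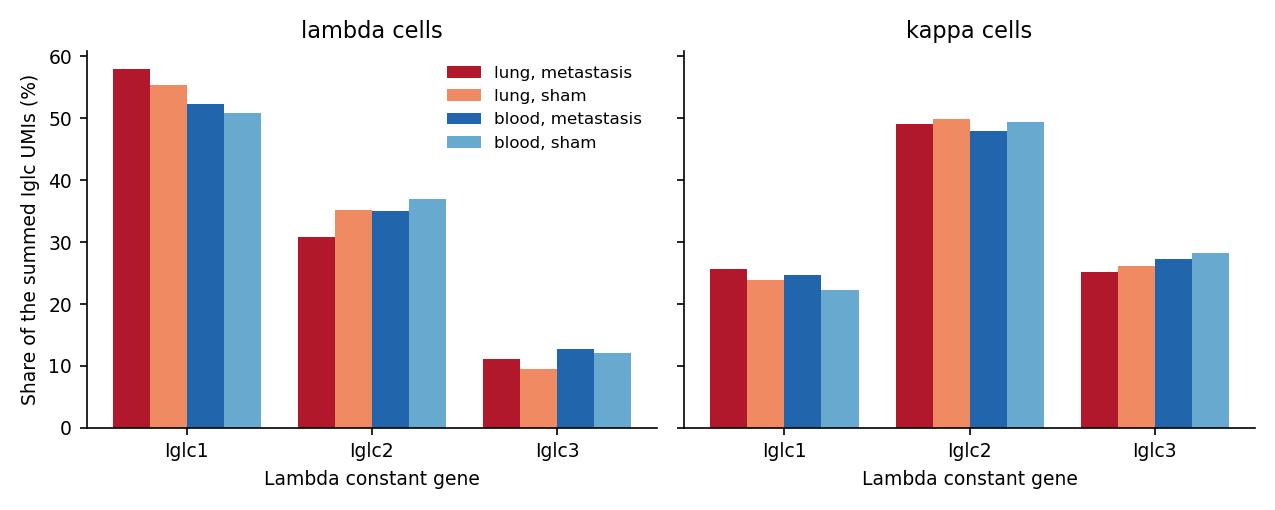
Share of the summed Iglc UMIs (vertical axis, percent) that came from Iglc1, Iglc2 and Iglc3 (horizontal axis) in lambda cells on the left and kappa cells on the right, 1 bar per library. Iglc1 gives 50.9% to 58.0% in lambda cells and 22.3% to 25.7% in kappa cells.

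The variable segments, which the rule did not use, were paired unevenly with the constant genes. Of 292 lambda cells with Iglv1 as their only detected lambda variable gene, 227 were led by Iglc1, 46 by Iglc2 and 19 by Iglc3. Of 87 cells with Iglv3, 53 were led by Iglc2, 28 by Iglc1 and 6 by Iglc3, and of 37 cells with Iglv2, 27 were led by Iglc2, 9 by Iglc1 and 1 by Iglc3. Blood sham gave 186 of the 292 Iglv1 cells. By library, Iglc1 led 10 of 20 Iglv1 cells in lung metastasis, where Iglc2 led the other 10, 38 of 48 in lung sham, 32 of 38 in blood metastasis and 147 of 186 in blood sham. Iglc2 led Iglv3 cells in 2 of 4, 12 of 19, 8 of 12 and 31 of 52, and Iglv2 cells in 9 of 10 in lung sham and 18 of 25 in blood sham; lung metastasis had no Iglv2 cell, and both Iglv2 cells of blood metastasis were led by Iglc1. Iglv1 transcripts stood at 0.609, 0.498, 0.630 and 0.541 UMIs per 10000 in lambda cells, against 0.0754, 0.0848, 0.0788 and 0.0821 in kappa cells, where they did not reach the lambda level in any library. Kappa variable segments summed to 0.970, 0.878, 0.788 and 0.812 UMIs per 10000 in lambda cells, against 1.37, 1.34, 1.52 and 1.32 in kappa cells. Within the lambda cells of at least 90% Iglc the kappa variable sum was 0.493, 0.785, 0.589 and 0.362.

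Lambda cells were a slightly larger share of the light chain assigned B cells in metastasis than in sham in both tissues as counted. The difference was within counting error in lung and beyond it in blood, and at a matched depth it was within counting error in both. They made up 13.02% in lung metastasis (95% exact binomial interval 11.5% to 14.6%) and 11.6% in lung sham (10.7% to 12.6%), and 17.9% in blood metastasis and 15.0% in blood sham. The ratio of metastasis to sham was 1.12 in lung (interval 0.974 to 1.30) and 1.19 in blood (1.06 to 1.33), where these and all intervals and floors here cover counting error only. With every B cell thinned to 1500 UMIs, which leaves out 26.9%, 10.7%, 5.44% and 0.850% of B cells as too shallow, the shares were 10.5% in lung metastasis and 11.2% in lung sham (ratio 0.936, 0.782 to 1.12), and 17.8% in blood metastasis and 16.3% in blood sham (ratio 1.09, 0.966 to 1.23). After thinning the direction in the lung was turned, and both intervals included equality. Where the minor chain had to be at most 10% of a cell's light chain UMIs in either chain, the direction in blood was turned. Blood metastasis then stood at 37.6% (32.3% to 43.0%) and blood sham at 39.6% (36.8% to 42.4%). The direction in lung was not turned, with 18.1% in lung metastasis and 15.0% in lung sham. This setting kept 206 of 1351 kappa and 124 of 294 lambda cells in blood metastasis. In blood sham it kept 713 of 6911 kappa and 467 of 1224 lambda cells, so a larger part of the kappa cells was left out. Cells of at least 90% Iglc alone were 7.99% in lung metastasis and 6.55% in lung sham (ratio 1.22, 1.009 to 1.47), and 7.54% in blood metastasis and 5.74% in blood sham (ratio 1.31, 1.09 to 1.59). After thinning these ratios were 1.03 (0.810 to 1.31) and 1.21 (0.984 to 1.49).

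Between tissues, the lambda share was lower in lung than in blood, by a ratio of 0.729 (0.623 to 0.852) in the metastasis arm and 0.770 (0.699 to 0.849) in the sham arm. The gap lay in cells of 50 to 90% Iglc, which were 5.03% and 5.04% of assigned B cells in lung metastasis and lung sham, and 10.3% and 9.31% in blood metastasis and blood sham. For cells of at least 90% Iglc the ratio of lung to blood was 1.06 (0.844 to 1.33) in the metastasis arm and 1.14 (0.990 to 1.32) in the sham arm, with equality inside both intervals. As a share of all kept barcodes, lambda cells were 1.84% in lung metastasis and 3.58% in lung sham, and 3.42% in blood metastasis and 9.39% in blood sham. All B cells moved alongside: they were 15.3% of kept barcodes in lung metastasis and 32.4% in lung sham, and 19.9% in blood metastasis and 63.2% in blood sham. Lung and blood were prepared differently, and whether both were enriched for CD45+ cells is not known, so preparation and tissue cannot be told apart in these shares.

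**Figure D3:**
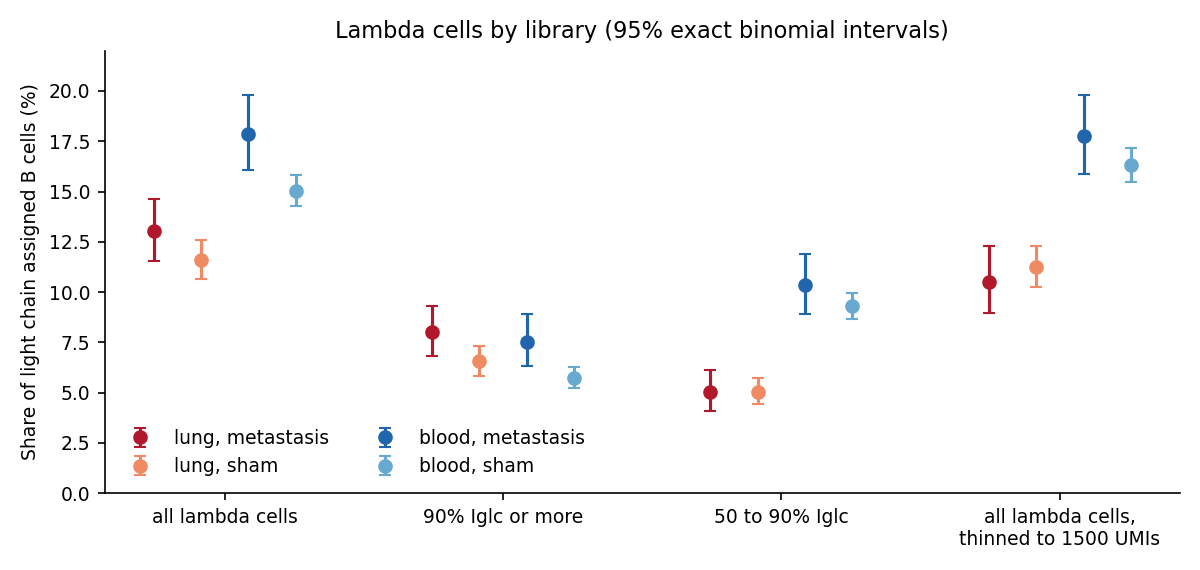
Lambda cells as a share of the B cells assigned to a light chain (vertical axis, percent) in each library, with 95% exact binomial intervals, for all lambda cells, those of 90% Iglc or more, those of 50 to 90% Iglc, and all lambda cells after thinning to 1500 UMIs. The thinned shares of lung metastasis and lung sham, 10.5% and 11.2%, lie within each other's intervals.

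Set against the kappa cells of the same library, lambda cells had higher transcripts of the recombinase Rag1 and of genes of recently formed B cells, and lower transcripts of MHC class II and of the activation marker Cd86. UMIs were summed over the cells of each chain in each library and tested with edgeR's quasi-likelihood test with the library as a block, over 10285 genes, after leaving out the genes of the rule, all light chain segments and haemoglobin. At an adjusted p under 0.05, 391 genes were higher in lambda cells (3.8% of those tested) and 464 were lower (4.51%). Without the lung sham library 219 were higher and 292 lower. The p-values measure only the spread between these 4 libraries. The gene lists used below were chosen with earlier results of these data known, so counts over a list are a description. Levels below are CPM in the order lung (metastasis, then sham) and blood (metastasis, then sham). Fold changes are log2, with an approximate standard error derived from the fold change and the F statistic of the test.

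Rag1 had the highest fold change of the 12 higher genes named by rule. Lambda cells held 26, 37, 11 and 66 Rag1 UMIs in 19, 21, 9 and 34 cells, and kappa cells, although more numerous, held 8, 14, 2 and 15. This is 59.8, 31.7, 14.7 and 13.7 CPM in lambda cells, against 2.45, 1.45, 0.552 and 0.503 in kappa cells, with no overlap between the chains. The log2 difference was 4.55 ± 0.27 (SE; adjusted p = 1.06e-11, edgeR). A Rag1 UMI was found in 7.72%, 4.15%, 3.06% and 2.78% of lambda cells and in 0.487%, 0.311%, 0.148% and 0.174% of kappa cells, against 1.20%, 0.474%, 0% and 0.248% of T cells. The share in kappa cells was at or below that in T cells in 3 of the 4 libraries. T cells were deeper, at a median of 3010, 3771, 4054 and 5615 UMIs, against 1809, 2300, 2465 and 3560 in kappa cells. Whether the Rag1 UMIs of kappa cells are background was not tested. In blood metastasis no UMI was found among 420 T cells, which allows a share of up to 0.714% when 3 counts are taken as the limit of a count of 0. Its partner Rag2 was too sparse to test, with 1, 1, 0 and 2 UMIs in lambda cells and 4, 1, 0 and 2 in kappa cells.

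Of 19 genes of recombination, receptor editing and early B lineage control, 14 were measured well enough to test, 7 were higher in lambda cells and none was lower, with a median log2 difference of 0.16 against -0.00 over all genes tested. Apart from Rag1 these were Lig4, the ligase that closes the recombined ends (0.95 ± 0.27, adjusted p = 0.0278), and the B lineage transcription factors Tcf3 (0.41 ± 0.07), Spi1 (0.28 ± 0.07), Pax5 (0.23 ± 0.04), Ikzf3 (0.19 ± 0.04) and Ebf1 (0.16 ± 0.03). The Lig4 call was lost without the lung sham library (0.68) and without blood metastasis (0.89), and the Spi1 call without blood sham (0.30). The recombination genes Xrcc4, Dclre1c and Prkdc of the same list gave -0.05, -0.02 and -0.10. None of them passed (adjusted p = 0.849, 0.987 and 0.692, edgeR). Irf4 and Irf8, which act in light chain recombination in pre-B cells, gave 0.09 ± 0.08 and 0.15 ± 0.06 and did not pass (adjusted p = 0.65 and 0.138, edgeR). The pre-B surrogate light chain genes Igll1 and Vpreb1 and the terminal transferase Dntt were too low to test.

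All 8 genes of the transitional, that is recently formed, B cell list were higher in lambda cells, with a median log2 difference of 0.92. This list too was chosen with earlier results of these data known, so the count is no independent support. Vpreb3, a chaperone of the assembling receptor, stood at 963, 855, 870 and 714 CPM in lambda cells, against 454, 376, 500 and 380 in kappa cells, a log2 difference of 0.94 ± 0.05 (adjusted p = 3.78e-13, edgeR). Akap12, a scaffold for protein kinase A, stood at 287, 278, 135 and 113 in lambda cells, against 105, 112, 66.5 and 57.4 in kappa cells (1.11 ± 0.08, adjusted p = 1.36e-10). In each library both genes were higher in lambda cells, and Vpreb3 did not overlap between the chains over the 4 libraries. Sox4, a transcription factor of early B lineage cells, had 78.2, 36.9, 84.2 and 43.2 in lambda cells, against 24.2, 15.5, 26.5 and 20.9 in kappa cells (1.25 ± 0.13). T cells of these libraries also carried Sox4, at up to 21.8 CPM in lung metastasis. Cd93, the receptor used to stain transitional cells, had 48.3, 24.0, 21.4 and 15.1 in lambda cells, against 13.8, 12.1, 11.6 and 7.45 in kappa cells (1.07 ± 0.17). The others were Myb (0.91 ± 0.17), Chchd10 (0.66 ± 0.05), Cd24a (0.39 ± 0.05) and Bach2 (0.22 ± 0.04). Ighm, the IgM heavy chain, was higher and Ighd, the IgD heavy chain, lower: Ighm stood at 4787, 4466, 4417 and 4307 in lambda cells, against 2999, 3205, 3126 and 3218 in kappa cells (0.46 ± 0.03, adjusted p = 8.12e-11), and Ighd at 425, 386, 483 and 429 in lambda cells, against 554, 517, 588 and 496 in kappa cells (-0.35 ± 0.05, adjusted p = 4.5e-06). Neither of these 2 genes overlapped between the chains over the 4 libraries.

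Another 5 genes were singled out after their values were seen, for the lowest p beyond the genes named by rule or held in a list. Agbl1, a cytosolic carboxypeptidase, stood at 1150, 1129, 929 and 941 CPM in lambda cells, against 287, 323, 370 and 333 in kappa cells (log2 1.58 ± 0.06, adjusted p = 1.09e-15, edgeR). It was seen in 50.4%, 52.96%, 51.0% and 55.1% of lambda cells, against 17.7%, 21.0%, 21.2% and 26.6% of kappa cells and 0.714% to 1.29% of T cells. Ly6d, a surface protein first expressed on B lineage progenitors, was higher by 0.61 ± 0.04. Serinc5, a membrane protein, was higher by 1.12, and Stat4, a cytokine-responsive transcription factor, and Dennd4a, an exchange factor for Rab proteins, gave -0.86 and -0.47, both lower in lambda cells with an adjusted p under 0.05.

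By rule the other named higher genes were Reln, Fmn2, Derl3, Col5a3, Cox6a2, Capsl, Rgs7, Irs1, F5, Uchl1 and Atp1b1, with log2 differences between 1.73 and 2.60. Several rested on few UMIs in lambda cells: Fmn2 on 4, 13, 7 and 28, Capsl on 2, 11, 6 and 17, and Cox6a2 on 5, 8, 5 and 6. Of the 8 Cox6a2 UMIs of lung sham, 6 were in 1 cell. A gene low in kappa cells can pass the low-count filter through its lambda sums alone, which favours upward folds in such genes. Reln, the secreted glycoprotein reelin, stood at 140, 78.9, 96.3 and 23.6 CPM in lambda cells, against 12.2, 12.7, 8.28 and 6.84 in kappa cells (2.60 ± 0.20, adjusted p = 6.06e-10, edgeR). Its range in lambda cells did not overlap that in kappa cells. Atp1b1, the beta subunit of the sodium pump, stood at 209, 147, 144 and 76.7 in lambda cells, against 40.0, 38.8, 38.1 and 28.3 in kappa cells (1.73 ± 0.10, adjusted p = 1.06e-11). T cells carried Atp1b1 at 54.2, 50.1, 57.6 and 43.4, and Reln at 0.140 to 2.72. Derl3 (2.31 ± 0.46) acts in the degradation of proteins of the endoplasmic reticulum, F5 (1.83 ± 0.28) is coagulation factor V, and Irs1 (1.89 ± 0.35) is the adaptor of the insulin receptor. The call of Cox6a2 was lost without lung sham (1.5) or blood metastasis (1.99), and that of Rgs7 without blood sham (1.60).

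Antigen presentation genes were lower in lambda cells: 9 of the 10 genes of the MHC class II list fell and none was higher, with a median log2 difference of -0.35. H2-Aa, the alpha chain of I-A, stood at 2088, 2139, 2024 and 1915 CPM in lambda cells, against 3250, 3296, 2790 and 2563 in kappa cells (-0.58 ± 0.03, adjusted p = 1.06e-11, edgeR). H2-Eb1, the beta chain of I-E, gave -0.59 ± 0.04, H2-Ab1, the beta chain of I-A, -0.49 ± 0.04, H2-Oa -0.55 ± 0.08, and Cd74, the invariant chain, -0.26 ± 0.02. The highest lambda library lay under the lowest kappa library for H2-Aa. Ciita, the transactivator of these genes, gave -0.23 ± 0.08 and did not pass (adjusted p = 0.0933).

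Among 21 genes that respond to antigen receptor signals, 19 were tested, 9 were lower and 3 higher, with a median log2 difference of -0.33. Cd86, a costimulatory ligand, stood at 191, 252, 92.2 and 108 CPM in lambda cells, against 400, 470, 170 and 157 in kappa cells (-0.83 ± 0.07, adjusted p = 1.31e-08, edgeR). Cd83, which stabilises surface MHC class II, stood at 253, 311, 127 and 89.4 in lambda cells, against 431, 448, 178 and 131 in kappa cells (-0.62 ± 0.06, adjusted p = 1.29e-07). Both were lower in lambda cells in every library, and both were higher in lung than in blood in either chain. The immediate early genes Fos (-0.79 ± 0.09), Nr4a1 (-0.62 ± 0.09), Junb (-0.48 ± 0.04) and Ier2 (-0.43 ± 0.07), Cd69 (-0.33 ± 0.06) and Myc (-0.43 ± 0.11) also fell. Those that rose were Gadd45b (0.46 ± 0.08), Dusp2 (0.25 ± 0.05), a phosphatase of MAP kinases, and Nfkbia (0.22 ± 0.05), the inhibitor of NF-kappaB. The calls of Myc (-0.35 and -0.44) and Fosb (-0.33 and -0.31) were lost without blood metastasis and without blood sham, and that of Dusp2 without lung sham (0.21) and without blood sham (0.18).

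Genes of mature, recirculating follicular B cells and of trafficking fell as well. Of 11 follicular genes 8 were lower and none higher (median -0.24), and of 14 tested trafficking genes 8 were lower and none higher (median -0.26); the lists overlap, with Ccr7, Cxcr5, Klf2 and S1pr1 among the shared genes. Fcer2a, the low affinity IgE receptor CD23, stood at 127, 208, 158 and 156 CPM in lambda cells, against 211, 258, 195 and 214 in kappa cells (-0.47 ± 0.07, adjusted p = 1.9e-05, edgeR). It was lower in lambda cells in every library, although the ranges of the chains overlapped. Cr2, complement receptor CD21, gave -0.65 ± 0.12, Gpr183, the oxysterol receptor that positions B cells, -0.62 ± 0.07, and Itgb7, an integrin of gut homing, -0.69 ± 0.11. Ccr6, the receptor of CCL20, stood at 32.2, 23.1, 21.4 and 9.31 in lambda cells, against 56.3, 66.1, 24.0 and 23.0 in kappa cells (-1.21 ± 0.15, adjusted p = 3.7e-06). S1pr1, which drives exit from lymphoid tissue, gave -0.02 ± 0.06 and Cxcr4, the bone marrow retention receptor, -0.24 ± 0.09, and neither passed (adjusted p = 0.954 and 0.119).

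The 12 named lower genes were Mapk12, Prss12, Chst10, Il9r, B3gnt7, Ccr6, Slc2a13, Yes1, Megf9, Traf1, Cyp4v3 and Rapgef4, with log2 differences between -1.45 and -0.96. Chst10, a sulfotransferase, gave -1.39 ± 0.18 (adjusted p = 5.24e-06, edgeR), Il9r, the interleukin-9 receptor, -1.39 ± 0.20, Traf1, an adaptor of TNF receptors, -1.06 ± 0.20, and Rapgef4, an exchange factor for Rap proteins, -0.96 ± 0.12. The calls of 5 of the others were lost when 1 library was left out: Mapk12 (-1.06) and B3gnt7 (-1.30) lost theirs without lung sham, Prss12 (-0.48) without blood sham, Yes1 without any of lung sham (-1.18), blood metastasis (-1.18) or blood sham (-1.04), and Cyp4v3 without any single library (-1.07 to -0.87).

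Antigen receptor signalling genes moved in both directions: 4 of 24 were higher and 6 lower, with a median of -0.03. Higher were Cd72 (0.62 ± 0.06) and the phosphatase Ptpn6 (0.45 ± 0.06), both inhibitors of the signal, the adaptor Blnk (0.27 ± 0.05) and the kinase Blk (0.16 ± 0.04). Lower were Cr2, Fyn (-0.39 ± 0.10), Pik3ap1 (-0.27 ± 0.07), the phosphatase Inpp5d (-0.26 ± 0.04), Bank1 (-0.24 ± 0.03) and Prkcb (-0.21 ± 0.04). Cd72 stood at 281, 269, 291 and 182 CPM in lambda cells, against 165, 151, 179 and 130 in kappa cells, without overlap. The Blk call was lost without any of lung sham (0.14), blood metastasis (0.18) or blood sham (0.17), and those of Fyn (-0.22) and Pik3ap1 (-0.23) without lung sham.

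Other B cell states differed between lists: marginal zone genes were called in both directions, plasma cell genes upward, and B1, memory and interferon genes hardly at all. Of 12 tested marginal zone genes 3 were higher (S1pr3, Marcks and Mzb1) and 3 lower (Cr2, Notch2 and Tm6sf1), with a median of 0.11. S1pr3, a sphingosine-1-phosphate receptor, had 5, 21, 2 and 14 UMIs in lambda cells and 19, 41, 7 and 25 in kappa cells (1.60 ± 0.35, adjusted p = 0.00319, edgeR). Of 11 tested B1 genes 1 was lower and none higher (Ahnak, -0.19 ± 0.06), and of 9 tested memory and germinal centre genes 1 was lower and none higher (Pdcd1lg2, -0.89 ± 0.20). Of 7 tested plasma cell genes 4 were higher and none lower: Derl3, Prdm1 (1.18 ± 0.32), the transcription factor of plasma cell differentiation, Mzb1 (0.34 ± 0.08), a chaperone of IgM secretion, and Slamf7 (0.33 ± 0.10). Derl3, already named by rule above, rested on 5, 12, 3 and 17 UMIs in lambda cells and 6, 6, 5 and 32 in kappa cells. Prdm1 rested on 10, 12, 10 and 19 UMIs in lambda cells and 18, 58, 8 and 73 in kappa cells. Its call was lost without lung metastasis (1.00) and without blood metastasis (0.97), and that of Slamf7 without any of lung metastasis (0.32), lung sham (0.28) or blood sham (0.30). Of 17 tested interferon genes 1 was higher and none lower (Bst2), of 8 tested Toll-like receptor genes 2 were higher and none lower (Cd180 and Unc93b1), and of 11 survival genes 2 were higher (Tnfrsf13b and Pim1) and 2 lower (Bcl2a1b and Bcl2). Of 92 ribosomal protein genes, a list added after values were seen, 70 were lower and none higher, with a median of -0.16.

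**Figure D4:**
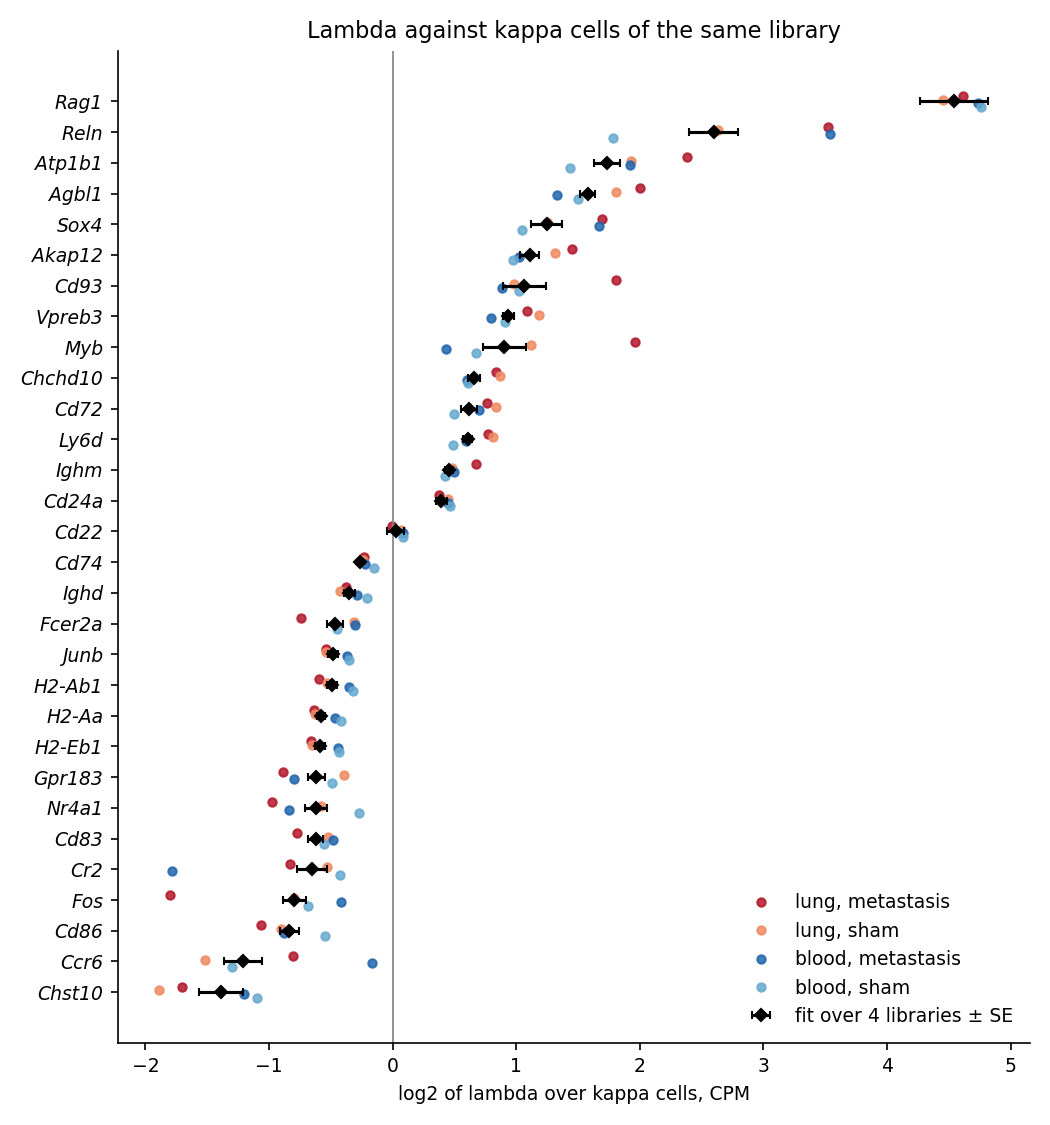
Log2 of the level in lambda over kappa cells of the same library (horizontal axis, from CPM) for named genes and list genes (rows), with 1 coloured point per library and a diamond for the fit over the 4 libraries with its standard error. Rag1 stands furthest to the right at 4.55; Cd22 lies near 0, and Chst10 and Ccr6 lie furthest to the left.

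Markers of other cell types were present in both chains, most of all lung markers in lung metastasis. There the airway gene Scgb1a1 alone stood at 2127 CPM in lambda cells and 4720 in kappa cells, where H2-Aa stood at 2088 and 3250. Summed per 10000 UMIs, T cell markers ranged from 0.201 to 1.10 over the libraries in lambda cells and from 0.157 to 0.809 in kappa cells, and NK markers from 0.335 to 5.31 in lambda cells and from 0.00828 to 3.95 in kappa cells. Monocyte and macrophage markers ranged from 0.644 to 3.51 in lambda cells and from 1.97 to 4.24 in kappa cells, neutrophil markers from 0.0429 to 0.802 and from 0.0280 to 0.243, and platelet markers from 0.0171 to 1.35 and from 0.0135 to 1.40, the first range of each pair in lambda cells and the second in kappa cells. The lung structural markers ranged from 2.05 to 23.2 in lambda cells and from 2.16 to 50.5 in kappa cells, and the collagen genes Col1a1 and Col3a1 were at 0 in the lambda cells of all 4 libraries. The erythroid markers ranged from 1.80 to 6.32 in lambda cells and from 1.44 to 6.66 in kappa cells. The melanoma markers Mlana, Dct, Tyrp1 and Tyr were at 0 in the lambda cells of all 4 libraries too. Of the tested markers of these types, Il7r (T cell list) and Retnlg (neutrophil) were higher in lambda cells, and Chil3 (monocyte), Pecam1 and Sftpc (lung) were lower. The part of such RNA in the differences above was not tested.

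Both strata of the Iglc share held genes that differed from kappa cells. Against the same kappa cells, cells of at least 90% Iglc had 251 higher genes (2.6% of 9665 tested) and 313 lower (3.24%), and cells of 50 to 90% Iglc had 251 higher (2.46% of 10189) and 327 lower (3.21%). The strata share their kappa cells, so only their own values are set side by side. Rag1 gave log2 differences of 4.65 at 90% or more and 4.48 at 50 to 90%, Vpreb3 1.10 and 0.83, Agbl1 1.88 and 1.31, H2-Aa -0.58 and -0.58, and Cd86 -0.91 and -0.77. Mzb1 stood at 0.58 in the upper stratum and 0.10 in the lower. Of the named genes, Mapk12, Slc2a13, Traf1 and Cyp4v3 did not pass in the cells of at least 90% Iglc, and Prss12 and Megf9 passed in neither stratum. Fmn2, Derl3, Col5a3, Cox6a2, Capsl, Rgs7, Irs1 and Yes1 were too low to test at 90% or more; of these Col5a3 and Capsl were also too low at 50 to 90%, and Yes1 did not pass there.

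Along the whole range of the Iglc share, levels differed within the kappa cells already. In lung metastasis Vpreb3 stood at 295 CPM in B cells of 0 to 10% Iglc, at 632 in those of 40 to 50% and at 909 in those of 90% or more. In blood sham the same bins held 240, 545 and 855. H2-Aa ran the other way, with 3664, 2708 and 2151 in lung metastasis and 2985, 2163 and 1821 in blood sham. Ighm stood at 2131, 4427 and 4537 in lung metastasis and at 2273, 4002 and 4327 in blood sham, so it was nearly at the level of the lambda peak just below the 50% boundary. Agbl1 stood at 94.5, 804 and 1327 in lung metastasis and at 144, 574 and 1212 in blood sham. Rag1 had another course: no bin below 50% exceeded 8.98 CPM in any library, and cells of 90% or more held 54.2, 34.2, 21.2 and 15.0. Cells of 80 to 90% stood higher in every library, at 94.9, 92.9, 45.2 and 30.3, but on few UMIs. All cells of 50 to 90% together held 12, 16, 5 and 42 Rag1 UMIs, and 1 cell of blood sham held 9 of them. Cells of 90% or more held 14, 21, 6 and 24 UMIs, so the order of these bins is uncertain. The bins are a description, drawn after values were seen, and 2 of them hold 18 cells each (70 to 80% in lung metastasis and 80 to 90% in blood metastasis).

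**Figure D5:**
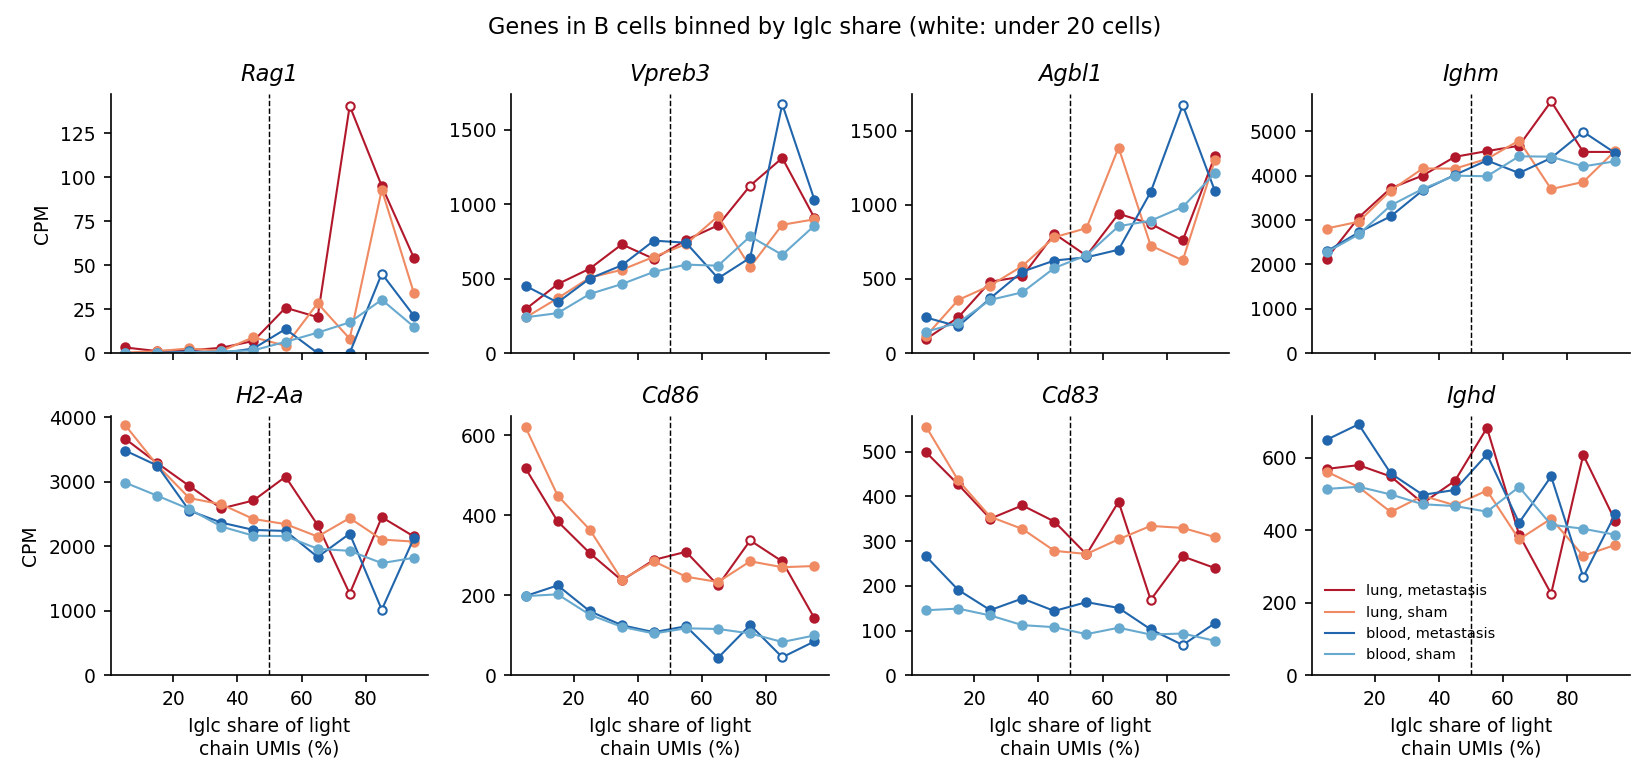
Summed CPM (vertical axes, from 0) of 8 genes in B cells binned by the Iglc share of their Iglc and Igkc UMIs (horizontal axes, percent), 1 line per library; white points are bins of under 20 cells and the dashed line is the 50% boundary. Vpreb3, Agbl1 and Ighm are higher and H2-Aa and Cd86 lower already from 0 to 50%. Rag1 stays at or below 8.98 up to 50%, and reaches 30.3 to 94.9 at 80 to 90% and 15.0 to 54.2 at 90% or more. The Rag1 points rest on few UMIs, with 5 to 42 per library over all cells of 50 to 90% Iglc.

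Most genes beside the light chain loci did not pass the test between the chains. Of the 20 nearest tested genes, 5 on each side of each locus, 17 did not pass. Among these, Olfr164 at 23.2 kb beyond the lambda locus and Rpia at 38.8 kb beyond the kappa locus, gave -0.28 and -0.02 (adjusted p = 0.698 and 0.981, edgeR), and Hira, 91.3 kb before the lambda locus, gave 0.04 (adjusted p = 0.93). Those that passed included Eif2ak3, 118 kb beyond the kappa locus (-0.23 ± 0.06, adjusted p = 0.0125), and Klhl6, 686 kb beyond the lambda locus (0.27 ± 0.07, adjusted p = 0.0102).

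Few genes had a lambda to kappa difference that depended on the arm. The test of the chain by arm term called 8 of 10285 genes (0.0778%), with 449 at an unadjusted p under 0.05. Of these the T and NK cell genes Ccl5 (2.45), Gzma (2.45), Nkg7 (2.01), Klra9 (4.42) and AW112010 (1.03) and the IgA heavy chain gene Igha (7.51) had a higher lambda to kappa log2 difference in metastasis than in sham. The airway epithelial gene Scgb1a1 (-2.33) and the histone gene Hist1h1b (-1.49) had a lower one. Most of the T and NK cell genes rested on few lambda cells. In lung metastasis Ccl5 had 236 UMIs in 9 cells, Gzma 147 in 7, Nkg7 48 in 9 and Klra9 13 in 2. AW112010 was spread wider there, with 83 UMIs in 23 cells. In blood metastasis all 14 Gzma UMIs were in 1 cell, as were all 5 of Nkg7 and 11 of the 12 of Ccl5. NK markers summed to 5.31 per 10000 UMIs in the lambda cells and 1.79 in the kappa cells of lung metastasis; their part in these calls was not tested. Igha had 219, 4, 2 and 16 UMIs in lambda cells and 12, 495, 17 and 106 in kappa cells, and 217 of the 219 were in 1 cell. The chain by tissue term called 22 genes (0.214%), with 568 at an unadjusted p under 0.05. Among them Agbl1 and Ly6d had a higher lambda to kappa difference in lung than in blood by 0.43 and 0.24, and H2-Ab1 a lower one by -0.24. Of the 22, only 5 passed with DESeq2 size factors (Bpgm, S100a4, Agbl1, Ly6d and Calm2) and 4 with a minimum of 10 light chain UMIs (Bpgm, Agbl1 and Calm2 among them), so the H2-Ab1 call was lost under both (adjusted p = 0.0623 and 0.200, edgeR) and the Ly6d call with the minimum of 10 (0.0626). The Hist1h1b call of the arm term was also lost under both (0.0653 and 0.167).

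Between the arms, with 1 library each, lung lambda cells of the metastasis arm differed from those of the sham arm in few genes. Of 2828 genes with at least 100 UMIs over the lambda cells of both lung libraries, 15 were at least 2-fold higher with a counting interval that excluded equality (0.53%) and 11 at least 2-fold lower (0.389%); there is no replicate and no test. Without cells of a Scrublet score of at least 0.3, 4 were higher and 7 lower, and without cells over 5% haemoglobin 7 were higher and 3 lower. Several of the values rested on 1 cell. Jchain, which joins secreted IgA and IgM, had 105 UMIs in lung metastasis, all in 1 cell, against 1 in lung sham, and Igha had 219 against 4. Lyz2, a myeloid lysozyme, had 9 UMIs in lung metastasis against 273 in lung sham, of which 1 cell held 91, and kappa cells stood at 179 CPM in lung metastasis and 167 in lung sham. The airway gene Scgb1a1 had 925 UMIs against 865, with 440 in 1 cell of lung metastasis and 530 in 1 cell of lung sham. The erythroid gene Car2 (log2 2.16) was higher in kappa cells too, by 2.17. The activation genes Fos and Fosb were lower: Fos stood at 59.8 CPM in lung metastasis and 123 in lung sham (log2 -1.04, interval -1.70 to -0.43), while kappa cells stood at 208 and 213 (-0.03, -0.16 to 0.09). Fosb stood at 64.4 in lung metastasis and 153 in lung sham (-1.24, -1.88 to -0.66), and kappa cells at 113 and 138 (-0.29, -0.46 to -0.13). Klhl14, a BTB-kelch protein of B cells, gave -1.06 in lambda cells and -0.27 in kappa cells.

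Of the lists in the lung, 2 of 15 measured antigen receptor response genes were 2-fold lower and none higher, while none of 5 transitional genes (median log2 ratio 0.17, against -0.01 over all genes measured) and none of 10 MHC class II genes was called. Vpreb3 stood at 963 CPM in lung metastasis and 855 in lung sham (log2 0.17, 0.00 to 0.34), and H2-Aa at 2088 and 2139 (-0.03, -0.15 to 0.08). Mzb1 stood at 455 in lung metastasis and 260 in lung sham (0.81, 0.54 to 1.07), short of the 2-fold limit, and kappa cells at 226 and 201.2 (0.16).

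In blood, of 6272 genes 34 were at least 2-fold higher in the metastasis arm (0.542%) and 51 lower (0.813%); without cells over 5% haemoglobin 21 were higher. The interferon-stimulated gene Isg15 stood at 190 CPM in blood metastasis and 28.1 in blood sham (log2 2.75, interval 2.41 to 3.10), and kappa cells at 171 and 20.7 (3.05). Rsad2, the antiviral enzyme viperin, stood at 82.9 in blood metastasis and 29.99 in blood sham (1.47, 1.013 to 1.91), and kappa cells at 78.3 and 24.6 (1.67). These 2 of 10 measured interferon genes were called higher and none lower, with a median of 0.57 against 0.03 over all genes measured. In the lung, Isg15 stood at 57.5 in lambda cells of the metastasis arm and 80.6 in those of the sham arm (-0.49, -1.19 to 0.16), with equality inside the interval. Kappa cells of the lung went the other way, with Isg15 at 108 in the metastasis arm and 62.9 in the sham arm (0.77, 0.58 to 0.97). Rsad2 in the lung gave 0.36 (-0.11 to 0.83) in lambda cells and 0.76 (0.58 to 0.94) in kappa cells. Within blood metastasis the 142 Isg15 UMIs sat in 25 lambda cells, 38 of them in 1 cell.

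Of the other blood genes, the erythroid gene Slc4a1 (log2 3.46) and the platelet gene Pf4 (1.84) were higher in metastasis in lambda cells, and by 3.07 and 1.81 in kappa cells. Reln stood at 96.3 CPM in blood metastasis and 23.6 in blood sham (2.03, 1.58 to 2.47), while kappa cells stood at 8.28 and 6.84 (0.27, -0.33 to 0.83). S100a4, a calcium-binding protein, stood at 50.8 in blood metastasis and 207 in blood sham (-2.03), and kappa cells at 36.7 and 133 (-1.85); 34 of its 38 UMIs in blood metastasis were in 1 cell. Of 10 measured marginal zone genes 3 were lower and none higher: Cr2 stood at 20.1 in blood metastasis and 55.0 in blood sham (-1.46, -2.31 to -0.71), with kappa cells at 69.2 and 73.9 (-0.09, -0.29 to 0.10), Cd36 gave -1.14 in lambda cells and -0.49 (-0.82 to -0.17) in kappa cells, and Cd9 -1.07 in lambda cells and -0.62 (-0.95 to -0.30) in kappa cells. The heat shock gene Hsph1 was lower in lambda (-1.58) and kappa cells (-1.49). None of 7 transitional genes (median 0.26) and none of 10 MHC class II genes was called in blood, and Vpreb3 stood at 870 in blood metastasis and 714 in blood sham (0.29, 0.16 to 0.41), with kappa cells at 500 and 380 (0.40). Metastasis libraries held fewer lambda cells than sham libraries in both tissues, 246 against 506 and 294 against 1224, so low genes are less precise there.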

How the data were processed

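Droplet single-cell RNA libraries of lung and blood were analysed from the deposited gene by barcode counts. The authors deposited UMI counts per gene and barcode, not normalised, for 32285 genes; the submitters' processing notes list Cell Ranger 7.0.0, GRCm38.p6, R 4.3.1 and Seurat 4.3.0.1 without their roles. Reads of near-identical genes (Iglc2 and Iglc3, Iglv1 and Iglv2) can be split or dropped in such counting.

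The members of the group and the gene lists were chosen with earlier results of these data known. Barcodes were filtered and assigned as the opening of the results gives; no doublet was removed, and Scrublet (in scanpy 1.11.5) was run to score them. UMIs were summed per library and chain, which gives 8 sums, and tested with edgeR 4.0.16 in R 4.3.3 (TMM, filterByExpr, quasi-likelihood test, library as a block, Benjamini-Hochberg over 10285 genes). Nothing in the labels says whether a library pools several mice, so p-values measure only the spread between these libraries. Levels are CPM (UMIs per 1000000) computed without haemoglobin and light chain genes. Metastasis and sham, 1 library each, were compared by the log2 ratio with an exact conditional binomial 95% interval.

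Named genes were the 12 highest and 12 lowest fold changes among called genes with 1 sign in all 4 libraries, and the 8 highest and 8 lowest ratios among called genes between arms, leaving out mitochondrial, ribosomal, haemoglobin, light chain and unnamed genes; some genes that this rule or the lists hold are not reported here. On simulated counts of lambda against kappa cells over 10279 genes, 78.8% of 198 genes changed 2-fold were recovered and 3.70% of the calls were false. The changed genes were drawn from well-counted genes only. All genes had the same dispersion and all libraries the same mean profile, so these rates need not hold for sparse genes or genes concentrated in few cells. Alternatives were DESeq2 1.42.0, other scalings and filters, other cell rules, thinning to 1500 UMIs, and leaving out each library. Other tools were Python 3.11.15, numpy 2.4.6, scipy 1.17.1 and pandas 2.3.3. Sequences were read from the GENCODE vM21 annotation on GRCm38.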

Additional observations from a re-analysis of the deposited data

Results flagged for a closer look

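These genes had a lambda to kappa difference that itself differed between groups of libraries, by the test of the interaction term across all genes (edgeR, adjusted p under 0.05, 2 libraries on each side). Between the arms, metastasis against sham, Igha gave a log2 difference of differences of 7.51, with 217 of the 219 Igha UMIs of lung metastasis lambda cells in 1 cell. This value came from the lung, with a lambda to kappa log2 difference of 7.04 in metastasis and -3.96 in sham; in blood the difference was -0.87 in metastasis and -0.14 in sham, the other way round. Between the tissues, lung against blood, the lambda to kappa difference was higher in lung for Agbl1 (0.43), Ly6d (0.24), Calm2 (0.39), Hsp90b1 (0.48), Pdzd2 (0.86), Pafah1b3 (0.52), BC035044 (0.74) and Cd38 (0.61). It was lower in lung for Bpgm (-0.51), Rtn3 (-0.58), H2-Ab1 (-0.24) and Cblb (-0.45). Of these tissue genes only Agbl1, Ly6d, Calm2 and Bpgm also passed with DESeq2 size factors, and only Agbl1, Calm2 and Bpgm with a minimum of 10 light chain UMIs. Agbl1 was higher in lambda than in kappa cells in every library, by a log2 of 1.94 and 1.75 in lung metastasis and lung sham and of 1.27 and 1.46 in blood metastasis and blood sham. Cd38, a surface enzyme of B cells, gave 0.83 and 0.59 in lung metastasis and lung sham, and -0.04 and 0.11 in blood metastasis and blood sham.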

How the results depend on the processing

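No paired analysis was possible because the labels give no replicate numbers; lambda and kappa cells of the same library were paired by the library block, and without it (no replicate block) 29 genes were higher and 14 lower, against 391 and 464. None of the 96 genes followed turned its direction in a setting where it was tested. The lambda share turned between arms in lung on thinning and in blood where the minor chain was at most 10%. The count of higher genes was 251 in cells of at least 90% Iglc, 251 in cells of 50 to 90% Iglc, 214 with DESeq2, and 219 to 373 when 1 library was left out. The count of lower genes was 273 with DESeq2, 704 with no filter on low counts, and 292 to 431 when 1 library was left out; both lowest counts were without lung sham. With no filter, 20 genes depended on the arm; genes that depended on the tissue were 5 with DESeq2 size factors and 4 with at least 10 light chain UMIs, against 22. The lambda share (lung metastasis and sham, then blood metastasis and sham) was 18.1%, 15.0%, 37.6% and 39.6% where the minor chain had to be at most 10% of a cell's light chain UMIs, 8.42%, 6.90%, 8.41% and 6.33% with cells of at least 90% Iglc alone, and 5.47%, 5.39%, 11.2% and 9.87% with those of 50 to 90%. Thinning gave 10.5% in lung metastasis and 16.3% in blood sham, and stricter cell filters 14.0% in blood sham. Iglc1 led 64.3%, 66.9% and 67.7% of lambda cells in lung sham, blood metastasis and blood sham where the minor chain had to be at most 10%, and as many with cells of at least 90% Iglc alone. In cells of 50 to 90% Iglc it led 47.4%, 49.1%, 40.6% and 43.1% in the same order. Between arms in the lung, 4 genes were higher without cells of high Scrublet score, 7 without cells over 5% haemoglobin and 80 with a minimum of 30 UMIs, and 7, 3 and 103 were lower, or 5 where the minor chain was at most 10%. In blood 15 were higher where the minor chain was at most 10%, 21 without cells over 5% haemoglobin and 120 with a minimum of 30 UMIs, where 128 were lower. The cause of these shifts was not tested. Of 96 genes followed, 67 never fell short of the threshold under the alternatives fixed at the start that kept the library block. A gene too low to test in a setting was not counted as falling short there. Where the minor chain was at most 10%, 75 passed, 3 did not, and the rest were not tested. Shallow cells limit the light chain call: 26.9% of lung metastasis B cells had under 1500 UMIs.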
